A study of Mus musculus with 6 samples.

Results

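Gene expression in blastocysts from ICI-treated mice was set against that in blastocysts from normal pregnant mice, both flushed from the uterus. Members were all probes with a detection p-value, the probability of such a signal from background alone, under 0.05 on both arrays of either group. They were 16658 of the 45281 probes on the array, and represented 9381 of the 19057 genes named on it. Each of the 4 arrays, 2 per group, held labelled RNA of 1 pool of 100 to 120 embryos.

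The females were CD-1, an outbred mouse strain, and had all received 5 IU of pregnant mare gonadotropin and, 44 h later, 5 IU of human chorionic gonadotropin before mating. ICI females also received 0.5 µg per mouse of a compound that the labels name only as ICI, and the uterus females were normal pregnant mice with no treatment named beyond the hormones. A time of 70 h after the second hormone is stated in words that could be that of treatment or of flushing. All embryos were described as day 3.5, no genetic alteration is named, and the sources used here give no age of the females. An additional pair of pools from ligated oviducts entered the linear model, where it helped to estimate the spread between replicates. Whether both pools of a group came from different females is not stated, so the p-values rest on a spread between arrays that may be technical.

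In mice, ovarian estrogen acting on a uterus primed by progesterone opens a short period in which the uterus accepts a blastocyst, and blastocysts kept from that signal become dormant. The blastocyst itself holds the trophectoderm, which attaches to the uterus, and the inner cell mass, which divides into epiblast and primitive endoderm. Estrogen acts mainly through nuclear receptors that bind DNA and recruit cofactors. By its title, the series is about genes under estrogen control in embryos before implantation.

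Markers of the labelled stage were present in all 4 pools. Cdx2 of the trophectoderm, Pou5f1 and Nanog of the inner cell mass, and Gata6 of the primitive endoderm were above background on each array. Mean signals per array were 372 and 344 in the ICI pools, against 375 and 356 in the uterus pools. The number of probes above background was 17694 and 16850 in the ICI pools and 16525 and 17038 in the uterus pools. The root mean square SD between replicates on the normalised log2 scale was 0.20 for ICI and 0.24 for uterus, and 0.44 for the oviduct pair. The number of arrays limits the precision.

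Single arrays stood apart at some probes. Uterus replicate 2 had 14 probes that lay over 2 log2 units above the other 3 arrays, and no other array had any. They included the oocyte genes Gdf9, Bmp15, Nlrp5, Nlrp14, Padi6, Zp3 and Omt2a, among others. Uterus replicate 1 lay over 1 log2 unit below the other 3 arrays at 52 probes, against 12 for ICI replicate 1, 2 for ICI replicate 2 and 1 for uterus replicate 2. The ICI arrays also lay farther from uterus replicate 1 than from uterus replicate 2. Of the 16658 members, 4.62% (ICI replicate 1) and 6.06% (ICI replicate 2) differed over 2-fold from uterus replicate 1, against 1.45% and 2.05% from uterus replicate 2. Within the groups 0.690% of members differed over 2-fold between the ICI arrays and 0.967% between the uterus arrays.

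Most members were present in both groups. Of the 16658, 14683 (88.1%) were above background on all 4 arrays. A further 777 were above background on both ICI arrays and 1 uterus array, and 542 on 1 ICI array and both uterus arrays. On both ICI arrays and neither uterus array there were 422, and on neither ICI array and both uterus arrays 234. Probes just inside the detection threshold (36 probes with a detection p-value of 0.0491) had a median log2 signal of 5.04, and those just outside it (37 probes at 0.0502) one of 5.02.

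No gene passed the test between ICI and uterus embryos. In limma with Benjamini-Hochberg adjustment over the 17677 probes tested, 0 members had an adjusted p under 0.05, as did 0% of all tested, and the smallest adjusted p was 0.359. The same count was 0 under each of the 15 alternative settings. At an unadjusted p under 0.05 there were 1624 members, against a share of 9.23% over all probes tested. Of these, 1005 were higher in ICI embryos, where 5.71% of all tested were, and 619 lower, where 3.52% were. Median scaling in place of quantile normalization turned this split into 807 higher and 206 lower. The count was 680 without ICI replicate 1, 446 without ICI replicate 2 and 372 without uterus replicate 1. It was 3427 without either oviduct array, since the spread is then estimated from the ICI and uterus pairs alone.

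Differences over 2-fold were few. The median log2 difference, ICI minus uterus, was -0.03 over the members, with quartiles of -0.23 and 0.20, and 7717 members lay above 0 and 8940 below. Of all probes tested, 46.3% lay above 0. A difference over 2-fold was found at 406 members, 334 of them higher and 72 lower in ICI embryos, against a share of 2.34% of all probes tested. For 12386 members the 95% interval of the log2 difference lay between -1 and 1, so that a change over 2-fold fell outside it, and the same held for 75% of all probes tested. That count was 7751 without ICI replicate 1 and 7700 without uterus replicate 2. At 9289 members the arrays of the groups did not overlap, with ICI above uterus at 4361 and below it at 4928. Over all probes tested these shares were 54%, 25.3% and 28.7%. Among the 14683 members above background on all 4 arrays, 692 (4.71%) were higher and 471 (3.21%) lower at an unadjusted p under 0.05. Of all probes tested, 5.71% were higher and 3.52% lower. Counted by gene, at the brightest probe of each, 666 of the 9381 member genes had an unadjusted p under 0.05, against 6.76% of the 9857 genes tested. A difference over 2-fold was found for 116 member genes, 77 higher and 39 lower in ICI embryos, against 1.21% of all genes tested. The 95% interval lay within 1 log2 unit of 0 for 7500 member genes, and for 80.2% of all genes tested.

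The share of small p-values depended on signal. Of the 4305 members with a mean log2 signal under 6, 14.01% had an unadjusted p under 0.05. That share was 11.9% of 5454 members between 6 and 8, 6.92% of 4074 between 8 and 10, 3.85% of 2102 between 10 and 12, and 1.11% of 723 over 12. The plot of difference against signal shows this as a cloud that narrows to the right.

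**Figure D1:**
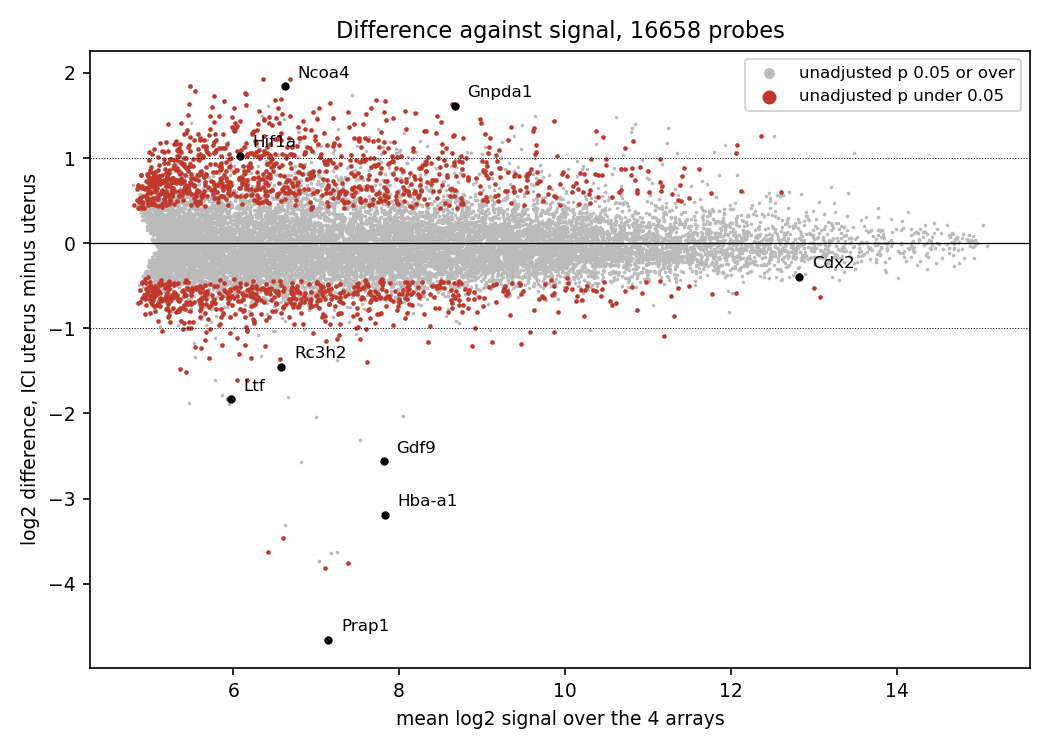
Log2 difference, ICI minus uterus, of each of the 16658 members (points) against its mean log2 signal over the 4 arrays, with unadjusted p under 0.05 in limma in red and dotted lines at a 2-fold difference. Prap1 lies lowest at -4.66, Ncoa4 near the top at 1.84, and bright genes such as Cdx2 (-0.39) lie close to 0.

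The smallest p of all members belonged to Prap1, whose product is an acidic, proline-rich protein that epithelia secrete. Its normalised log2 signal was 4.56 and 5.08 in the ICI pools, against 10.19 and 8.76 in the uterus pools. Both ICI arrays lay far below both uterus arrays, and only 1 of the ICI arrays was above background. The log2 difference was -4.66 (SE 0.45, 95% interval -5.72 to -3.60, limma adjusted p = 0.359). In the oviduct pools it was 4.52 and 4.66, not above background.

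Ltf encodes lactotransferrin, an iron-binding secreted protein and a classical estrogen target of the uterine epithelium in mice. It had log2 signals of 4.91 and 5.20 in the ICI pools, against 7.32 and 6.46 in the uterus pools. The groups did not overlap, and again 1 of the 2 ICI arrays was above background. The log2 difference was -1.83 (SE 0.57, limma adjusted p = 0.535). Unlike for Prap1, both oviduct pools had Ltf above background, at 6.69 and 8.46.

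Promoters of both genes are shown because the study concerns estrogen and because the estrogen receptor binds repeats of the letters GGTCA, which reads TGACC on the other strand. Each runs from 250 bases before to 50 after the start of the gene in RefSeq on mouse GRCm38.p6, Prap1 at chr7:140093146-140093445 and Ltf at chr9:111019042-111019341, both on the + strand. Capitals mark each match to GGTCA on either strand.
Prap1: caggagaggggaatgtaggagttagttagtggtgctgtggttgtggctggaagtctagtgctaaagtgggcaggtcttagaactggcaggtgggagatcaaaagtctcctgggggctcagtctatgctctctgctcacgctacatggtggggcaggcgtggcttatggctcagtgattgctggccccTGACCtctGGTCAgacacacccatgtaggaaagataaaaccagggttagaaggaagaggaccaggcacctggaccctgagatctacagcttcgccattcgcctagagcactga
Ltf: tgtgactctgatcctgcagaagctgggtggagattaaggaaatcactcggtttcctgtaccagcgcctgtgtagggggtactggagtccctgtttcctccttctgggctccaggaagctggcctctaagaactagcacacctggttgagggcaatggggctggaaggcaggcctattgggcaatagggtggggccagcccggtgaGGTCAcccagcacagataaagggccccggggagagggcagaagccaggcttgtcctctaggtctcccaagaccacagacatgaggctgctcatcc
Prap1 held 2 matches and Ltf 1. Over all 27025 RefSeq promoters of this length, 40.2% held at least 1 match, so its presence in a single promoter is common. Of the 7674 member genes with a promoter in the table, 37.7% held one. The share was 40.8% of 238 genes higher and 32.3% of 313 genes lower in ICI embryos at an unadjusted p under 0.05 for their brightest probe. The full palindrome GGTCANNNTGACC, where N is any base, stood in 0 of the 7674 and in 18 of all 27025 (0.0666%). A match of letters is a description of the sequence.

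Globin transcripts of red blood cells were also lower in the ICI pools. Hba-a1, an adult alpha-globin gene, had log2 signals of 5.58 and 6.89 in the ICI pools, against 10.18 and 8.67 in the uterus pools. The log2 difference was -3.19 (SE 1.46, limma adjusted p = 0.557), with no overlap between the groups. Hbb-bs, an adult beta-globin gene, had 6 member probes, all lower in ICI embryos, with log2 differences between -3.82 and -1.34. One of these probes was above background on neither ICI array (4.5 and 4.71) and on both uterus arrays (8.91 and 7.55), which puts it at least 9.23-fold lower in the ICI pools (limma adjusted p = 0.535). Globin genes have near-identical copies that probes cannot always tell apart. The oviduct pools were split, with Hba-a1 at 5.79 in replicate 1 and 10.73 in replicate 2.

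List medians often rested on single arrays. Of the 35 gene lists, the median of 19 changed sign when 1 ICI or uterus array was left out, and that of 16 did not.

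Marker lists for other cell types differed in direction. Of 13 uterine epithelium markers on the array 8 were members, 1 higher and 7 lower in ICI embryos, with a median log2 difference of -0.50. Of these, Prap1, Ltf and Lcn2 were members through the uterus arrays alone. With no detection filter, over all markers on the array, the median was -0.046. For genes at their brightest probe, the median over all genes tested was -0.06, and 40.5% were above 0. At an unadjusted p under 0.05, 2 of the 8 were lower (Prap1 and Ltf) and 0 higher, where 3.74% and 3.01% of all 9857 genes tested were. The summed signal of all 13 markers was 16045 and 17120 in the ICI pools, against 21379 and 18437 in the uterus pools. Bright genes such as Wfdc2 weigh most in this sum, so it is no measure of Prap1 and Ltf. Of the markers, 5 and 8 were above background on the ICI arrays and 8 on each uterus array. Foxa2 and Calb1 were above background on no array. Wfdc2, a bright member, had log2 signals of 12.15 and 12.33 in the ICI pools and 12.09 and 12.19 in the uterus pools. In pools of whole embryos, fewer cells of a type and less RNA per cell cannot be told apart, and the part of flushed uterine cells in the Prap1 and Ltf values was not tested.

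The list of blood and immune cell markers, which holds Hba-a1, had 5 members of 13 on the array, 3 higher and 2 lower, with a median of 0.08. It became -0.131 without ICI replicate 2. At a detection p-value under 0.01 the median was -1.38, with Hba-a1 among the members. The 4 members other than Hba-a1 had log2 differences between -0.07 (Csf1r) and 0.44 (Laptm5), with overlapping arrays for each. Laptm5, of lysosomes in blood cells, had log2 signals of 8.98 and 9.45 in the ICI pools, against 8.49 and 9.08 in the uterus pools. The erythroid gene Alas2 was above background on no array. Summed signals over all 13 genes of the list on the array, Hba-a1 included, were 852 and 1858 in the ICI pools, against 1824 and 1914 in the uterus pools. These sums also hold genes that were not members. Among those, S100a8 and S100a9 were each above background on 2 of the 4 arrays, with highest log2 signals of 9.10 and 7.66. Of 10 oviduct epithelium markers on the array 4 were members (2 higher, 2 lower), and of 14 stroma and muscle markers 3 (2 higher, 1 lower), with 0 at an unadjusted p under 0.05. The 1 cumulus cell marker among 8 was Foxl2, at least 1.06-fold higher in the ICI pools (limma adjusted p = 0.550).

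Oocyte and early cleavage genes were set by 1 array. Of 16 on the array 7 were members, 1 higher and 6 lower in ICI embryos, with a median log2 difference of -1.89. Gdf9, an oocyte growth factor, had log2 signals of 6.63 and 6.44 in the ICI pools, against 7.07 and 11.12 in the uterus pools. Padi6, an oocyte peptidylarginine deiminase family protein, had 7.21 and 6.84 in the ICI pools, against 7.49 and 10.63 in the uterus pools. Uterus replicate 1 lay near the ICI arrays for both genes, and uterus replicate 2 far above. The list median was -0.28 without uterus replicate 2 and -3.50 without uterus replicate 1. Of the whole list, 8 and 7 genes were above background on the ICI arrays, against 6 and 14 on the uterus arrays, and summed signals were 7198 and 6966 (ICI) against 6868 and 13556 (uterus). Omt2a and Omt2b, oocyte transcripts of near-identical sequence, were above background on both uterus arrays and no ICI array, and at least 2.60-fold and 2.13-fold lower in the ICI pools (limma adjusted p = 0.664 and 0.746). Both oviduct pools had them above background too, with Omt2a at 9.28 in oviduct replicate 2.

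**Figure D2:**
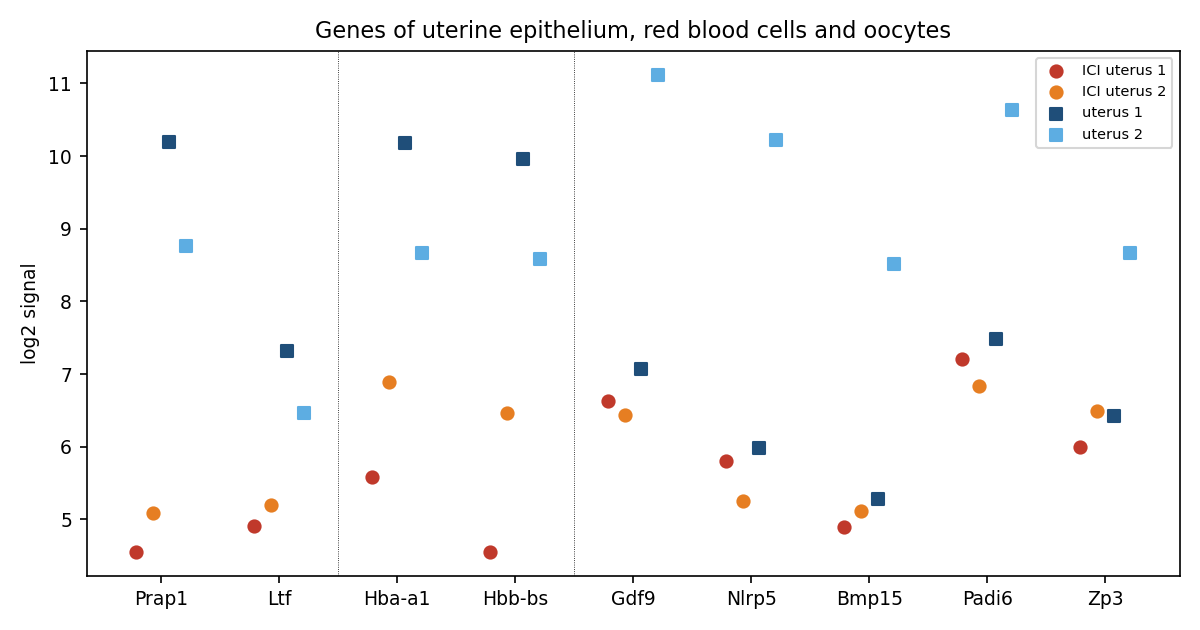
Normalised log2 signal of genes of uterine epithelium (Prap1, Ltf), red blood cells (Hba-a1, Hbb-bs) and oocytes (Gdf9, Nlrp5, Bmp15, Padi6, Zp3) on each ICI (circles) and uterus (squares) array. Prap1, Ltf and the globins are higher on both uterus arrays than on both ICI arrays, while the oocyte genes are high on uterus replicate 2 alone (Gdf9 at 11.12).

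Among genes above background on all 4 arrays, with an unadjusted p under 0.05 and arrays that did not overlap, the largest upward differences reached 1.84 on the log2 scale. Ncoa4, which delivers ferritin to autophagosomes, had log2 signals of 7.36 and 7.74 in the ICI pools, against 5.29 and 6.12 in the uterus pools. Its log2 difference was 1.84 (SE 0.75, limma adjusted p = 0.539), and its 3 member probes lay between 0.99 and 1.84. Decr2, a peroxisomal enzyme of fatty acid oxidation, had 7.10 and 7.58 in the ICI pools, against 5.39 and 5.93 in the uterus pools. Its log2 difference was 1.68 (SE 0.62), and 1.31 on its other probe. For neither gene did the groups overlap.

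Kpna2, an importin that carries proteins into the nucleus, had log2 signals of 8.53 and 8.81 in the ICI pools, against 6.31 and 7.68 in the uterus pools, a log2 difference of 1.67 (SE 0.58). Gnpda1, an enzyme of hexosamine metabolism, had 9.21 and 9.74 in the ICI pools, against 7.43 and 8.29 in the uterus pools, with a difference of 1.61 (SE 0.61). Gpcpd1, a phosphodiesterase of glycerophosphocholine, had 7.11 and 7.05 in the ICI pools and 5.22 and 5.84 in the uterus pools, with a difference of 1.55 (SE 0.37). Uterus replicate 1 was the lowest array for each of these 3 genes.

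The other genes of this rank were Slc29a1 (1.68), a nucleoside transporter, Ppm1b (1.64), a protein phosphatase, Cnot2 (1.59), a subunit of a deadenylase complex, Armc8 (1.58), part of a ubiquitin ligase, the arginine methyltransferase gene Prmt5 (1.55), Gdi2 (1.55), which recycles Rab proteins, and the mitochondrial protease gene Yme1l1 (1.54). Limma adjusted p lay between 0.535 and 0.539 for all 12 genes. For each of the 12, oviduct replicate 2 lay above oviduct replicate 1, as for Ncoa4 (7.61 against 5.08) and Gpcpd1 (6.77 against 5.70). These oviduct pools enter the SE. Uterus replicate 2 also lay above uterus replicate 1 for each of the 12. ICI replicate 2 lay above ICI replicate 1 for all but Ppm1b and Gpcpd1. Probes of the same gene did not all share the direction: the other member probe of Slc29a1 had a log2 difference of -0.29, and the lowest member probe -0.27 for Ppm1b, -0.22 for Cnot2, -0.28 for Armc8 and -0.18 for Prmt5.

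Under the same limits, which Hba-a1, Gdf9 and Padi6 missed by their p, the largest downward differences reached -1.45. Rc3h2, an RNA-binding protein that promotes mRNA decay, had log2 signals of 5.74 and 5.97 in the ICI pools, against 7.61 and 7.005 in the uterus pools. Its log2 difference was -1.45 (SE 0.53, limma adjusted p = 0.535). Guca1a, known as a guanylate cyclase activator of photoreceptors, had 6.41 and 7.43 in the ICI pools, against 8.30 and 8.32 in the uterus pools, with a difference of -1.39 (SE 0.32). Both genes had their arrays apart.

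Spen, a transcriptional repressor that binds the Xist RNA, had log2 signals of 6.62 and 6.46 in the ICI pools, against 8.11 and 7.28 in the uterus pools, with a difference of -1.15 (SE 0.41). Kcnq1ot1, an imprinted non-coding RNA that silences neighbouring genes, had 5.19 and 5.33 in the ICI pools, against 7.001 and 5.92 in the uterus pools, with a difference of -1.20 (SE 0.38). Xist, the RNA that coats the inactive X chromosome, had 9.64 and 9.95 in the ICI pools, against 10.003 and 9.86 in the uterus pools. The Xist arrays overlapped, and its 4 member probes were split, 1 above 0 and 3 below.

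The remaining genes of this rank were Prrc2c (-1.36) and Prrc2a (-1.16), both proline-rich proteins, Anp32a (-1.20), an acidic nuclear phosphoprotein, Ncdn (-1.19), Atg2a (-1.16), which transfers lipids to growing autophagosomes, Tns3 (-1.12) of cell adhesions, the deadenylase complex subunit gene Cnot3 (-1.12), and Cit (-1.12), a kinase of cell division. Limma adjusted p was 0.535 for each. All 4 member probes of Ncdn were below 0 (-1.19 to -0.46), as were the 3 of Atg2a and the 3 of Tns3. For Cnot3 1 of 4 probes was above 0, for Anp32a 1 of 3, and for Prrc2c 1 of 5.

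**Figure D3:**
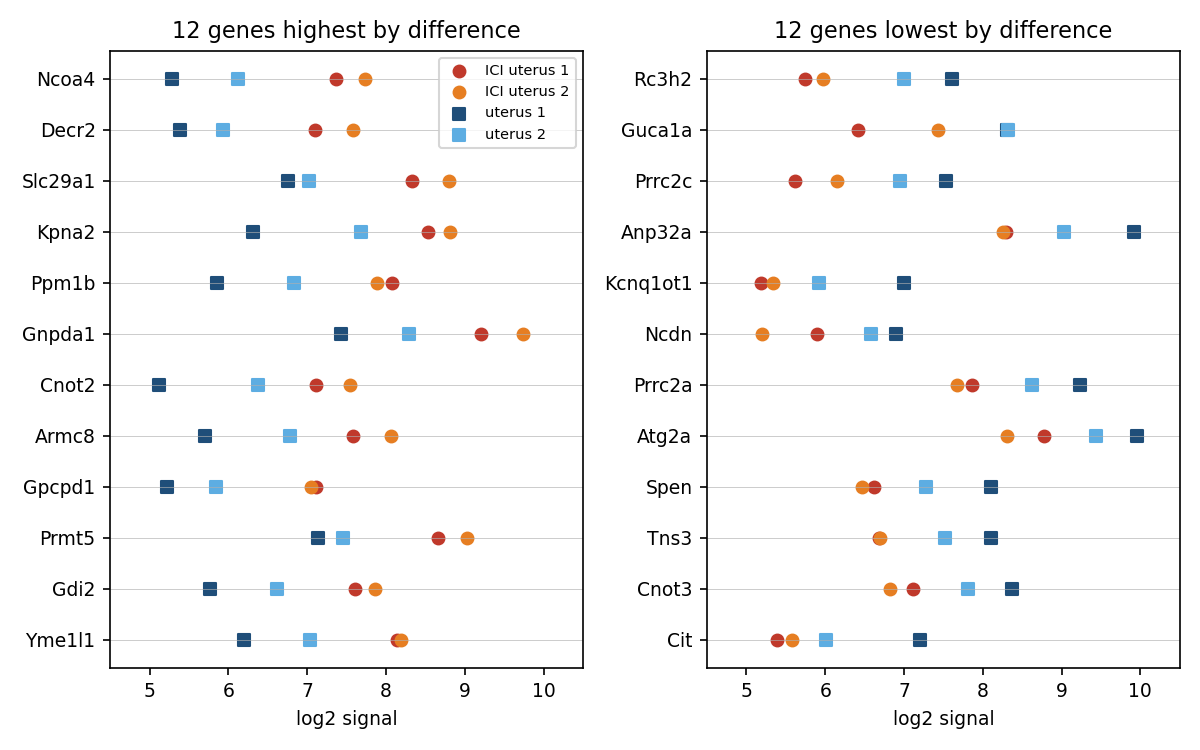
Normalised log2 signal on each ICI (circles) and uterus (squares) array for the 12 genes with the highest (left) and the 12 with the lowest (right) log2 difference among genes above background on all 4 arrays, with unadjusted p under 0.05 and arrays that did not overlap. Selection by these rules keeps the groups apart, and uterus replicate 1 lies farther from the ICI arrays than uterus replicate 2 for most genes, as for Kpna2 (6.31 against 7.68).

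After Prap1, the smallest p-values belonged to dim probes. Vps41, which tethers membranes before fusion with lysosomes, had log2 signals of 6.23 and 6.20 in the ICI pools, against 5.09 and 5.15 in the uterus pools (log2 difference 1.10, SE 0.17). Ptpn12, a tyrosine phosphatase of cell adhesion, had 6.62 and 6.32 in the ICI pools, against 4.65 and 5.29 in the uterus pools (1.499, SE 0.26), and its 5 member probes were all above 0. Only 1 uterus array was above background for either of these probes, and a brighter probe of Vps41 gave 0.14. Single dim probes of Gabpa, an ETS transcription factor, and Usp38, a deubiquitinase, were above background on no uterus array and at least 1.54-fold and 1.73-fold higher in the ICI pools. Both genes were above background in the uterus pools at a brighter probe, with a log2 difference of 0.03 for Gabpa and -0.31 for Usp38. Limma adjusted p was 0.535 for each of the 4 dim probes.

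Probes above background in 1 group alone were near the detection limit. The 422 probes present in the ICI pools and absent in the uterus pools represented 341 genes, and 41 of these probes were at least 1.5-fold higher. A probe of Mcm4, a subunit of the replicative helicase, came first with 5.93 and 6.94 in the ICI pools, against 4.51 and 4.79 in the uterus pools, and was at least 2.57-fold higher. The brightest Mcm4 probe was above background in both groups, at 12.33 and 12.50 in the ICI pools and 12.40 and 12.48 in the uterus pools (log2 difference -0.02, SE 0.21, with overlap). Next were probes of the RNA helicase gene Dhx30 (at least 2.31-fold), H2-Q6 (2.19-fold) of a class I histocompatibility family with near-identical members, Pramel39 (2.17-fold), Slmap (1.99-fold) and the proteasome gene Psmd2 (1.96-fold). Dhx30 and Slmap too were above background on all 4 arrays at brighter probes, with log2 differences of -0.07 for Dhx30 and -0.12 for the brightest of Slmap.

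In the other direction, 234 probes of 188 genes were present in the uterus pools and absent in the ICI pools, 17 of them at least 1.5-fold lower in ICI. After Hbb-bs and Omt2a, Napsa, which encodes an aspartic protease, was at least 2.24-fold lower, with 4.81 and 4.54 in the ICI pools and 6.84 and 5.53 in the uterus pools. Ftdc2 was at least 2.09-fold lower, with uterus replicate 2 (7.03) above uterus replicate 1 (5.15). Cd59b, an inhibitor of complement, was at least 1.64-fold lower, with uterus arrays close together at 5.78 and 5.70, while a brighter probe of Cd59b gave -0.17. Among these 12 genes of either direction, limma adjusted p ran from 0.535 to 0.746.

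Estrogen receptors themselves were near or under the detection limit. No probe of Esr1 (4 probes), Gper1 (1) or the progesterone receptor gene Pgr (2) was above background on both arrays of a group, and of the 3 probes of Esr2 detection occurred on a single array. No level is given for them. Of 9 receptors and related receptors on the array 4 were members, 1 higher and 3 lower in ICI embryos, with a median of -0.26 and 0 at an unadjusted p under 0.05. The orphan receptor Esrrb, part of the pluripotency network, had 10.71 and 10.75 in the ICI pools, against 11.01 and 10.93 in the uterus pools (log2 difference -0.24, SE 0.17). Pgrmc1, a membrane protein linked to progesterone, had 7.35 and 7.47 in the ICI pools, against 6.997 and 7.16 in the uterus pools (0.33, SE 0.18). The arrays of both genes did not overlap, yet limma adjusted p was 0.674 and 0.600.

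Of 14 member genes for cofactors of the receptor, 5 were higher and 9 lower, where 40.5% of all genes tested lay above 0. Their median was -0.12, and 1 was lower at an unadjusted p under 0.05, where 3.74% of all genes tested were. That gene was Smarca4, the ATPase of a chromatin remodelling complex, with 7.41 and 7.48 in the ICI pools, against 8.11 and 7.94 in the uterus pools (-0.58, SE 0.19). Ddx5, an RNA helicase and coactivator, had 8.83 and 9.13 in the ICI pools, against 7.26 and 7.63 in the uterus pools, but its log2 difference of 1.53 carried an SE of 0.82 from the fit over all groups.

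Genes known to respond to estrogen in the uterus or in cell lines did not share a direction. Of 26 on the array 16 were members, 7 higher and 9 lower in ICI embryos, with a median of -0.11. It was 0.04 without ICI replicate 1. At an unadjusted p under 0.05 there were 1 higher, Myc, and 1 lower, Ltf, where 3.01% and 3.74% of all genes tested were. Myc, a growth-promoting transcription factor, had 6.32 and 6.31 in the ICI pools, against 5.76 in both uterus pools, a difference of 0.55 (SE 0.22, limma adjusted p = 0.539). Vegfa, a growth factor of blood vessels, had 7.14 and 6.98 in the ICI pools, against 6.91 and 6.69 in the uterus pools (0.26, SE 0.18).

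Steroid metabolism was represented by 6 members of 18 genes on the array, 2 higher and 4 lower. Hsd17b11, a hydroxysteroid dehydrogenase of lipid droplets, had 7.52 and 7.59 in the ICI pools, against 7.05 and 6.92 in the uterus pools (0.57, SE 0.21), and its other probe gave 0.66. Hsd17b1, which makes estradiol from estrone, had 6.47 and 6.23 in the ICI pools, against 6.26 and 7.63 in the uterus pools. Those arrays overlapped, and the log2 difference of -0.60 became 0.08 without uterus replicate 2.

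Median log2 differences of the blastocyst lineage lists ran from -0.07 (trophectoderm) to 0.15 (epiblast and pluripotency). The 95% interval lay within 1 log2 unit of 0 for 15 of 22 trophectoderm members. It did so for 15 of 24 epiblast and 10 of 18 primitive endoderm members, against 80.2% of all genes tested. Of 22 trophectoderm members, 8 were higher and 14 lower in ICI embryos, with a median of -0.07, and 0 had an unadjusted p under 0.05. Of all genes tested, 40.5% lay above 0, with a median of -0.06. Cdx2, the transcription factor that specifies this lineage, had 12.76 and 12.50 in the ICI pools, against 13.23 and 12.81 in the uterus pools. Its log2 difference was -0.39 (SE 0.21, 95% interval -0.90 to 0.12). Wnt6, a secreted ligand, had 9.03 and 9.51 in the ICI pools, against 9.80 and 9.71 in the uterus pools (-0.49, SE 0.22), with all 3 of its probes below 0. The keratin gene Krt8 of the trophectoderm epithelium had 13.63 on both ICI arrays, against 13.62 and 13.61 on the uterus arrays.

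Of 24 epiblast and pluripotency members, 15 were higher and 9 lower in ICI embryos, where 40.5% of all genes tested lay above 0. The list had a median of 0.15. Without ICI replicate 2 that median was -0.02. At an unadjusted p under 0.05 there were 2 higher and 0 lower, where 3.01% and 3.74% of all genes tested were. For 1 of the 2, Fgf4, only 1 uterus array was above background. Fgf4, the growth factor by which the epiblast instructs its neighbours, had 5.81 and 5.996 in the ICI pools, against 4.78 and 5.24 in the uterus pools (0.89, SE 0.24, limma adjusted p = 0.535). Tdgf1, a Nodal coreceptor, had 8.32 and 8.44 in the ICI pools, against 7.61 and 7.89 in the uterus pools (0.63, SE 0.22). Sox2, a pluripotency factor, had 7.38 and 7.52 in the ICI pools, against 6.92 and 6.79 in the uterus pools (0.59, SE 0.29), and 0.74 on its other probe.

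For the central factors Pou5f1 and Nanog the brightest probe differed by less than its SE. Pou5f1 had 12.04 and 11.93 in the ICI pools, against 11.80 and 11.35 in the uterus pools (0.41, SE 0.81), and 0.40 on its other probe. Its ICI and uterus arrays did not overlap, and the oviduct pools, which enter the SE, were 9.35 and 12.23. Nanog had 10.77 and 10.65 in the ICI pools, against 10.72 and 10.78 in the uterus pools. Its log2 difference was -0.04 (SE 0.17, 95% interval -0.46 to 0.38), with the sign turned to 0.02 without ICI replicate 2, while a dimmer second probe of Nanog gave 1.496 (SE 0.77), with arrays that did not overlap.

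Of 18 primitive endoderm members, 7 were higher and 11 lower, with a median of -0.06 and 0 at an unadjusted p under 0.05. The ICI arrays stood apart for this list, and its median was 0.145 without ICI replicate 1 and -0.279 without ICI replicate 2. Gata6, a factor of this lineage, had 11.53 and 11.65 in the ICI pools, against 11.52 and 11.41 in the uterus pools (0.12, SE 0.17), and -0.13 on its other probe. Dab2, an endocytic adaptor, had 12.44 and 12.52 in the ICI pools, against 11.85 and 12.21 in the uterus pools (0.45, SE 0.20), with 2 dimmer probes below 0.

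Genes for attachment and implantation were split in direction. Of 22 members, 9 were higher and 13 lower in ICI embryos, with a median of -0.08. At an unadjusted p under 0.05, 2 were higher and 1 lower, where 3.01% and 3.74% of all genes tested were. Among receptors, Erbb3, which pairs with other receptors of the epidermal growth factor family, was above background on both ICI arrays and no uterus array, and at least 1.10-fold higher in the ICI pools. Igf1r, the receptor of insulin-like growth factor, had 5.11 and 4.87 in the ICI pools, against 5.79 and 5.43 in the uterus pools (-0.62, SE 0.21). Only 1 ICI array was above background for Igf1r. The integrin subunit gene Itgb1 had 6.29 and 6.60 in the ICI pools, against 5.81 and 5.94 in the uterus pools (0.57, SE 0.20), but -0.35 on its other probe. Hbegf, the ligand by which a uterus-facing blastocyst and the epithelium signal in mice, had 6.47 and 7.38 in the ICI pools, against 7.13 and 6.32 in the uterus pools, which overlapped.

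More prostaglandin and endocannabinoid genes, whose lipid products act at implantation, were lower than higher, as over all genes tested. Of 9 members 2 were higher and 7 lower, with a median of -0.19. Of all genes tested, 40.5% lay above 0 and 59.5% below, with a median of -0.06. Of the 9, 6 were lower with arrays that did not overlap, as were 32.4% of all genes tested. At an unadjusted p under 0.05 there was 1 lower, where 3.74% of all genes tested were. That gene was Napepld, which makes anandamide. Napepld had 6.54 and 6.504 in the ICI pools, against 7.003 and 7.04 in the uterus pools (-0.50, SE 0.17), and its 3 probes were all below 0. Ptgis, the prostacyclin synthase gene, had 8.61 and 8.18 in the ICI pools, against 8.87 and 8.65 in the uterus pools (-0.37, SE 0.23). The 95% interval lay within 1 log2 unit of 0 for all 9 members.

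Genes of dormancy and quiescence were split, with 8 higher and 9 lower of 17 members and a median of -0.05. Stk11, an upstream kinase of energy sensing, had 8.88 and 8.90 in the ICI pools, against 9.54 and 9.23 in the uterus pools (-0.49, SE 0.19). Myc, which is linked to dormancy in mouse embryos, was on this list too. At an unadjusted p under 0.05, Myc was the only member higher and Stk11 the only one lower. Of all genes tested, 3.01% were higher and 3.74% lower.

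Hypoxia genes had the highest median of the lists with more than 1 member. Of 20 members 16 were higher and 4 lower in ICI embryos, with a median log2 difference of 0.32, against -0.06 over all genes tested, and a range of 0.20 to 0.38 over the alternative settings. Of the 20, 13 were higher with arrays that did not overlap, as were 19.7% of all genes tested. At an unadjusted p under 0.05, 2 of the 20 were higher and 1 lower, where 3.01% and 3.74% of all genes tested were. Hif1a encodes the subunit of the hypoxia-inducible factor that is degraded when oxygen is present. It had 6.56 and 6.62 in the ICI pools, against 5.36 and 5.77 in the uterus pools (1.03, SE 0.20, 95% interval 0.54 to 1.51, limma adjusted p = 0.535). Pdk1, a kinase that keeps pyruvate out of mitochondria, had 6.08 and 6.18 in the ICI pools, against 5.56 and 5.33 in the uterus pools (0.69, SE 0.18). Egln2, one of the oxygen-dependent hydroxylases that mark Hif1a for decay, went the other way, with 6.64 and 6.31 in the ICI pools and 6.96 and 6.93 in the uterus pools (-0.47, SE 0.20).

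The other hydroxylases, which are themselves targets of the factor, lay above 0. Egln3 had 7.16 and 7.05 in the ICI pools, against 6.51 and 6.37 in the uterus pools (0.67, SE 0.33). Egln1 had 8.84 and 8.85 in the ICI pools, against 8.54 and 8.57 in the uterus pools (0.29, SE 0.17). The carbonic anhydrase gene Car12 had 6.65 and 6.61 in the ICI pools, against 5.84 and 5.78 in the uterus pools (0.82, SE 0.36). None of these 3 had an unadjusted p under 0.05, and none of their arrays overlapped. Arnt, the constant partner of Hif1a, had 9.05 and 9.01 in the ICI pools, against 9.40 and 9.12 in the uterus pools (-0.23, SE 0.22).

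The Hif1a promoter is shown because the factor binds the letters ACGTG, which read CACGT on the other strand. It lies at chr12:73907617-73907916 on the + strand of GRCm38.p6 in RefSeq, and capitals mark each match on either strand.
Hif1a: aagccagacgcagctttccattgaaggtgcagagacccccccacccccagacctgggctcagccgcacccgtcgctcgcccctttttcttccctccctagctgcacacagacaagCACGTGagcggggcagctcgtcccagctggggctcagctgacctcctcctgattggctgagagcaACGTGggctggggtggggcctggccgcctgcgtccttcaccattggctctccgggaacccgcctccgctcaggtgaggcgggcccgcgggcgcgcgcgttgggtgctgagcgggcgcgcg
It held 3 matches, 2 of which overlap in the letters CACGTG. Of the 17 hypoxia members with a promoter in the table, 12 (70.6%) held a match, against 26.2% of the 7674 member genes and 19.7% of all 27025 promoters. This list was composed of known targets and partners of the factor, so the share describes the list. Log2 differences ran from -0.47 to 1.03 among the 12 genes with a match and from -0.23 to 0.82 among the 5 without.

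Glycolysis genes, some of which belong to that pathway, were split, with 6 higher and 7 lower of 13 members and a median of -0.04. Without ICI replicate 1 the median was 0.229. Ldha, which makes lactate from pyruvate, had 8.32 and 8.55 in the ICI pools, against 7.81 and 8.04 in the uterus pools (0.51, SE 0.22). Pgk1, which makes ATP in glycolysis, had 9.86 and 9.92 in the ICI pools, against 9.43 and 9.64 in the uterus pools (0.35, SE 0.18), and 0.64 on its other probe. Of 24 respiratory chain members 14 were higher and 10 lower, with a median of 0.04. Over all genes tested, 40.5% lay above 0 and the median was -0.06. The 95% interval of all 24 lay within 1 log2 unit of 0, as did that of 80.2% of all genes tested.

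Stress lists differed in direction. Of 23 members of the endoplasmic reticulum stress and ATF4 list, 18 were higher and 5 lower in ICI embryos, with a median of 0.13. Over all genes tested, 40.5% lay above 0 and the median was -0.06. Hspa5, the main chaperone of that compartment, had 6.06 and 6.46 in the ICI pools. In the uterus pools it had 5.47 and 5.70 (0.67, SE 0.21). It was the only member higher at an unadjusted p under 0.05, where 3.01% of all genes tested were. Pdia4, a disulfide isomerase, had 10.16 and 10.06 in the ICI pools, against 9.76 and 9.62 in the uterus pools (0.42, SE 0.21). Ddit3, a death-promoting factor of prolonged stress, had 8.15 and 7.78 in the ICI pools, against 8.12 and 7.72 in the uterus pools, which overlapped. Without ICI replicate 2 the list median was 0.26, and with the authors' processed values 0.07.

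Of 22 antioxidant members 13 were higher and 9 lower, with a median of 0.12. Nfe2l2, the transcription factor of the antioxidant response, had 7.31 and 7.53 in the ICI pools, against 5.72 and 6.67 in the uterus pools (1.23, SE 0.36). The mitochondrial peroxiredoxin gene Prdx3 had 10.14 and 10.19 in the ICI pools, against 9.52 and 9.72 in the uterus pools (0.55, SE 0.20). Gpx3, a secreted glutathione peroxidase, had 5.25 and 5.22 in the ICI pools, against 6.15 and 5.81 in the uterus pools (-0.75, SE 0.28). Limma adjusted p was 0.535 for these 3 genes.

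Heat shock genes were higher at 5 and lower at 9 of 14 members. Hsp90aa1, an inducible cytosolic chaperone, had 12.07 and 12.05 in the ICI pools, against 11.21 and 11.73 in the uterus pools (0.59, SE 0.23), and 0.49 on its other probe. Probes of the constitutive chaperone gene Hspa8 disagreed. The brightest had 13.76 and 13.65 in the ICI pools, against 14.06 and 13.98 in the uterus pools (-0.32, SE 0.18), another 13.91 and 14.11 in the ICI pools, against 12.60 and 13.31 in the uterus pools (1.05, SE 0.65), and the third a difference of 0.12. Of 14 p53 and apoptosis members 6 were higher and 8 lower. Pmaip1, a death-promoting target of p53, had 7.03 and 7.37 in the ICI pools, against 6.16 and 6.57 in the uterus pools (0.83, SE 0.23), and 0.60 on its other probe. Of 15 cholesterol synthesis members 8 were higher and 7 lower, with Cyp51, a sterol demethylase, at 7.96 and 8.12 in the ICI pools and 7.25 and 7.64 in the uterus pools (0.59, SE 0.22).

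Growth lists had medians near 0. Cell cycle genes were higher at 7 and lower at 12 of 19 members, and DNA replication genes higher at 14 and lower at 8 of 22. Over all genes tested, 40.5% lay above 0. Cdk4, a kinase of the start of the cycle, had 10.49 and 10.59 in the ICI pools, against 10.08 and 10.06 in the uterus pools (0.48, SE 0.17), with a second probe at -0.08. Ribosomal protein genes had a median of -0.01 over 16 members. Proteasome genes had a median of 0.02 over 21 members, with Psmd2 apart from the rest at 7.12 and 7.23 in the ICI pools, against 5.51 and 5.88 in the uterus pools (1.48, SE 0.33) for its brightest probe.

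Ribosome biogenesis genes held both directions. Of 20 members 8 were higher and 12 lower, near the 40.5% of all genes tested above 0. There were 3 higher and 1 lower at an unadjusted p under 0.05, where 3.01% of all genes tested were higher and 3.74% lower. Ddx10, a helicase of ribosomal RNA processing, had 7.83 and 8.05 in the ICI pools, against 6.84 and 6.97 in the uterus pools (1.04, SE 0.18), and 1.13 on its other probe. Nop56, of the particles that methylate ribosomal RNA, had 11.02 and 10.95 in the ICI pools, against 10.22 and 10.502 in the uterus pools (0.62, SE 0.22). Ubtf, a factor of ribosomal DNA transcription, had 10.33 and 10.08 in the ICI pools, against 11.17 and 10.70 in the uterus pools (-0.73, SE 0.24).

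All 5 polyamine members were lower in ICI embryos, with a median of -0.24, where 40.5% of all genes tested lay above 0. Without uterus replicate 1 the median was -0.067, and without uterus replicate 2 it was -0.405. Smox, which oxidises spermine, had 7.05 and 7.12 in the ICI pools, against 7.84 and 7.52 in the uterus pools (-0.59, SE 0.20), and -0.82 on its other probe. Odc1, the rate-limiting enzyme of polyamine synthesis, had 13.14 and 13.07 in the ICI pools, against 13.28 and 13.17 in the uterus pools (-0.12, SE 0.19). Of 13 amino acid transporter members 7 were higher and 6 lower. The glutamine transporter gene Slc38a1 had 6.41 and 6.61 in the ICI pools, against 4.84 and 5.63 in the uterus pools (1.28, SE 0.32). Only 1 uterus array was above background for Slc38a1.

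Junction and blastocoel genes, which seal and fill the blastocyst cavity, were higher at 13 and lower at 6 of 19 members. Their median was 0.06, and 0 had an unadjusted p under 0.05. Over all genes tested, 40.5% lay above 0 and the median was -0.06. Aqp3, a water channel, had 11.24 and 11.44 in the ICI pools, against 10.86 and 11.004 in the uterus pools (0.41, SE 0.26). Of 20 members of the Wnt, Notch, BMP and Hedgehog list 9 were higher and 11 lower. Disp1, which releases hedgehog proteins, had 5.17 and 4.83 in the ICI pools, against 6.15 and 6.31 in the uterus pools (-1.23, SE 0.21), with 1 of 2 ICI arrays above background. The receptor gene Notch2 was at least 1.20-fold higher, and the Wnt coreceptor gene Lrp5 at least 1.34-fold lower, in the ICI pools.

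Of 15 DNA methylation and chromatin members 4 were higher and 11 lower, with a median of -0.11, where 40.5% of all genes tested lay above 0. Trim28, a corepressor that guards imprints and silent repeats, had 12.80 and 12.67 in the ICI pools, against 13.40 and 13.12 in the uterus pools (-0.52, SE 0.20). Tet1, an enzyme of DNA demethylation, had 10.05 and 10.06 in the ICI pools, against 10.56 and 10.48 in the uterus pools (-0.47, SE 0.30). Of 9 imprinted members 5 were higher and 4 lower, among them Kcnq1ot1 as given above. Phlda2, an imprinted gene of placental growth, had 7.08 and 8.71 in the ICI pools, against 7.18 and 7.10 in the uterus pools, so that 1 ICI array alone was high.

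**Figure D4:**
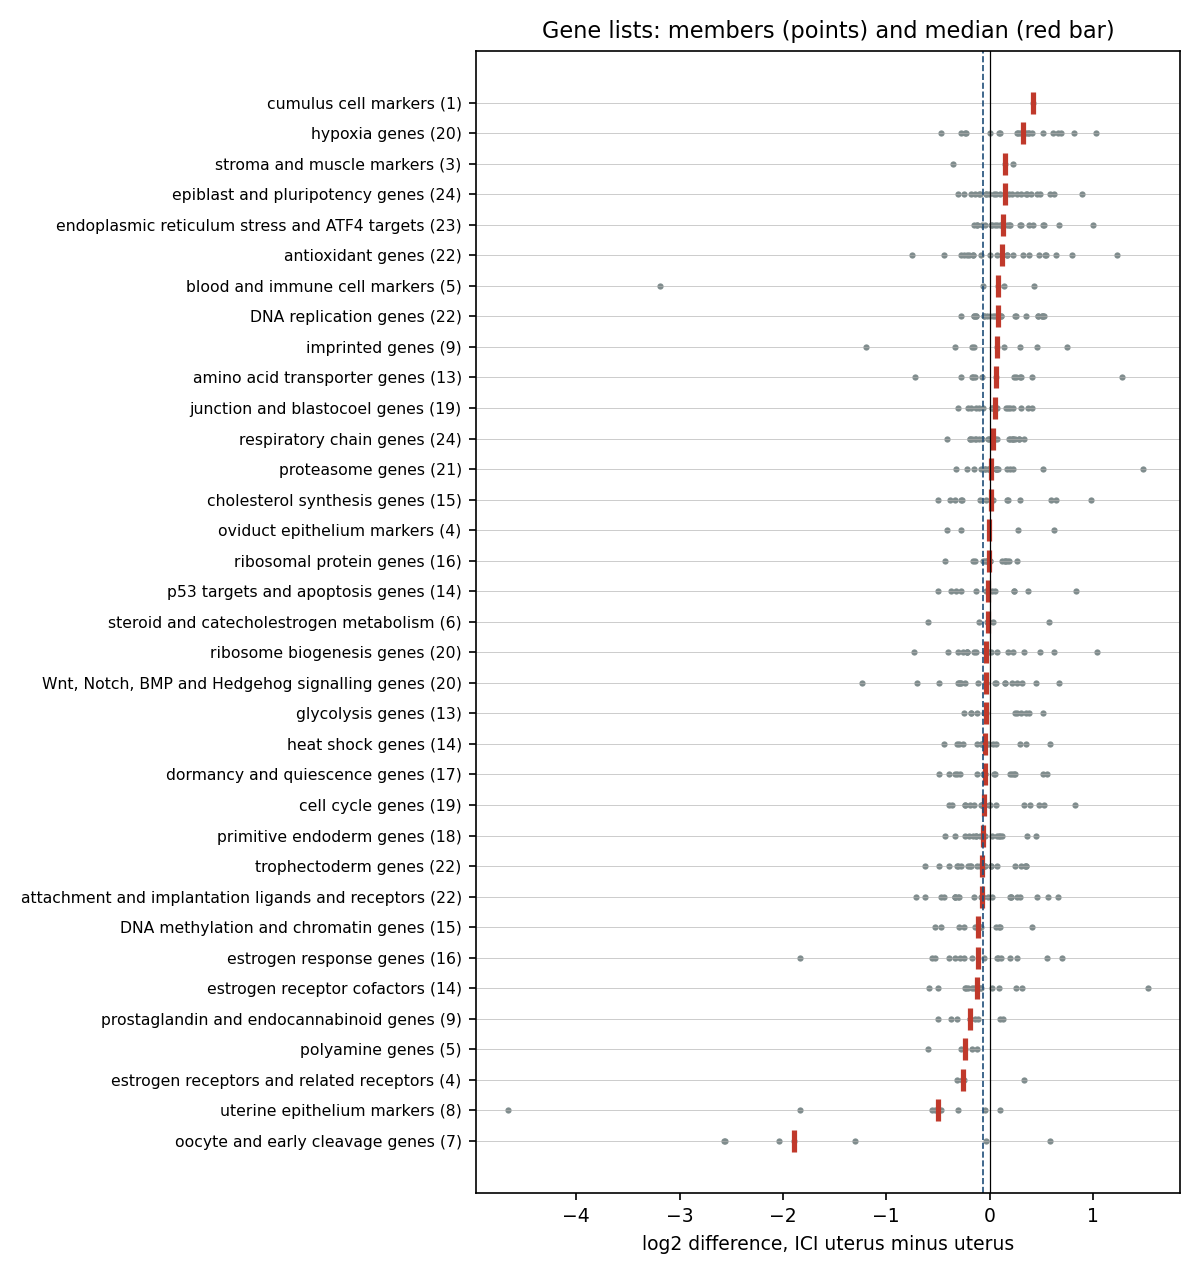
Log2 difference, ICI minus uterus, of each member gene at its brightest probe (points) and the median (red bar) for 35 gene lists, with the number of members in brackets. The dashed line is the median over the 9381 member genes (-0.06). Hypoxia genes have a median of 0.32, and uterine epithelium markers (-0.50) and oocyte genes (-1.89) lie lowest.

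Different probes of a gene often disagreed in direction. Of the 3454 genes with at least 2 member probes, 1660 (48.1%) had probes on both sides of 0. Where at least 2 probes had arrays that did not overlap (1540 genes), 599 (38.9%) had both directions among them. Where at least 2 probes had an unadjusted p under 0.05 (126 genes), 15 (11.9%) did. Ubtf was one of the 15: a second probe had 5.91 and 6.26 in the ICI pools, against 5.40 and 5.49 in the uterus pools, opposite to the first.

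Direction also differed by the kind of probe. Of the 9381 brightest probes of a gene, 40.4% were above 0, with a median of -0.06. At an unadjusted p under 0.05, 297 (3.17%) were higher and 369 (3.93%) lower. Of the 4946 other probes of named genes, 54.9% were above 0, with a median of 0.04. At the same p, 499 (10.1%) of them were higher and 167 (3.38%) lower. The 2331 probes without a single gene symbol had 209 (8.97%) higher and 83 (3.56%) lower. Over all probes tested these shares were 5.71% and 3.52%. The excess of higher over lower probes at an unadjusted p under 0.05 therefore lay in the dimmer probes of genes and in unnamed probes.

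**Figure D5:**
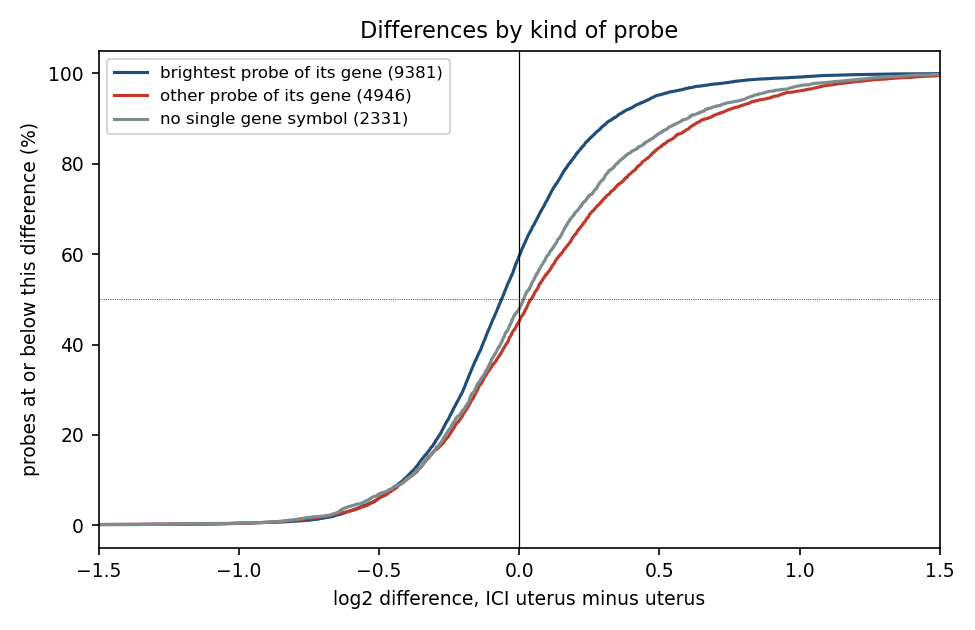
Cumulative share of probes (percent) at or below each log2 difference, ICI minus uterus, drawn from -1.5 to 1.5, for the brightest probe of each gene (9381), the other probes of named genes (4946) and probes without a single gene symbol (2331). The curve of the brightest probes lies to the left (median -0.06), and that of the other probes to the right (median 0.04), mainly through probes above 0.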

How the data were processed

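Per the labels, RNA of each pool was extracted with PicoPure, amplified linearly into biotin-labelled cRNA with Illumina TotalPrep reagents and hybridised to 1 array. In the deposited table of 45281 probes each array has, per the file headers, a mean bead intensity with its standard error, a bead number (median 43 or 44) and a detection p-value. The deposited intensities carry no normalization between arrays. A second table by the authors holds processed log2 values, which equal the log2 intensity minus constants per array and per probe, with a largest residual of 0.00172. Array medians of the processed values were -0.004 and 0.036 for ICI, 0.082 and 0.022 for uterus, and -0.109 and -0.075 for oviduct. Their direction follows the signals, and the constants per probe stay unknown. Genome build, scanner software, slides and scans were not given in the sources used here.

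With neqc of limma 3.58.1 (R 4.3.3), the background was removed using the detection p-values, 16 was added, and arrays were brought to common quantiles in log2. The test covered the 17677 probes that any of the 3 groups had under a detection p-value of 0.05 on both its arrays. Groups came from the labels. All 6 arrays entered 1 fit of 3 group means (lmFit, eBayes, 3 residual and 3.77 prior degrees of freedom) with a two-sided test of ICI minus uterus, adjusted by Benjamini-Hochberg over 17677 probes. The SE is that of the log2 difference. With 2 arrays against 2 an exact permutation test cannot go below p = 0.333, so none was run. Where neither array of a group was above background, the fold is "at least": the bright group's mean against, for each dim array, its own signal or the lowest detected one, whichever was higher. Where 1 of 2 arrays was above background the difference is inexact. Signals of different probes were not set against each other.

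The platform annotation gives 34885 probes 1 symbol, 18 several (not named) and 10378 none. Of those with 1 symbol, 34807 matched RefSeq genes of GRCm38.p6, which changed 0 symbols. Gene lists (35) use each gene's brightest tested probe. Members and lists were chosen with earlier results of these data known, so the lists are no independent support. Named genes are up to 12 highest and 12 lowest by difference among probes above background on all 4 arrays with unadjusted p under 0.05 and no overlap, the 5 of smallest p, up to 6 per group absent in the other, up to 3 of smallest p per list, and fixed genes. Wfdc2, Lcn2, Csf1r, Krt8, Hbegf, Egln1, Egln3, Car12, Arnt, Ddit3 and Odc1, and the genes of the array that stands apart, were chosen after their values were seen. The fit was tested on simulated data. Samples with the same replicate number deviated together at r = 0.125 (ICI and uterus), 0.0657 (ICI and oviduct) and 0.230 (uterus and oviduct), so the numbers were not taken to pair them. Plots used matplotlib 3.10.9 (Python 3.11.15).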

Additional observations from a re-analysis of the deposited data

How the results depend on the processing

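The count of members past an adjusted p under 0.05 was 0 under all 15 alternative settings. At an unadjusted p under 0.05 the 1624 members became 1013 with median scaling, 1045 with the authors' values, 3165 with no detection filter, 3427 with only the ICI and uterus arrays and 3544 with array weights. Leaving out 1 array gave 372 to 3427. With the replicate number as a block the count was 2018 and 0 passed after adjustment, and the block moved no other count by over 1.5 times. The count of members without overlap (9289) became 18892 with no detection filter, which tests more probes. The count of members with an interval within 1 log2 unit of 0 (12386) became 40193 with no detection filter, and 7700 to 14204 when 1 array was left out. Of the 35 list medians, 14 were above 0, and 10 to 18 under the alternatives. Cumulus markers had no median at a detection p-value under 0.01, since no member was left. Of 2149 recomputed differences of named probes, 2143 kept their sign. No member passed the adjusted threshold under any setting, so none could change sides of it. Many named probes were chosen for arrays that did not overlap, and leaving out 1 array cannot turn the sign of such a probe. The other 6 differences turned when 1 array was left out, and the arrays of each of these probes overlapped. The difference of Acta2 ran from -0.074 (without uterus replicate 2) to 0.527 when single arrays were left out, and that of Psmd14 from -0.0066 (without uterus replicate 1) to 1.03. That of Hsd17b1 ran from -1.28 to 0.084 (without uterus replicate 2), that of Nanog from -0.101 to 0.023 (without ICI replicate 2), that of Xist from -0.291 to 0.014 (without ICI replicate 1), and that of Phlda2 from -0.062 (without ICI replicate 2) to 1.57. The cause was not tested. No alternative moved the median over the members by more than 0.1.

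With 2 arrays per group and unknown origin of the pools, a p that misses the threshold does not show that levels are equal. The median SE was 0.232 for members with a log2 signal under 6 and 0.238 between 6 and 8, against 0.186 over 12, and folds near the detection limit are lower bounds. Slides and scans cannot be checked as batches here.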
